A study of Homo sapiens with 29 samples.

Results

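Chromatin accessibility was described around 6 genes whose products are prostate antigens at the cell surface or in prostate secretions: FOLH1, ACPP, STEAP1, STEAP2, TRPM8 and SLC45A3. The members were the accessible regions within 50 kb of 5 gene intervals in build hg19, with STEAP1 and STEAP2 sharing an interval. Peaks of all 29 libraries were merged where they overlapped or touched, which gave 77 member regions of 166696 regions in all. The FOLH1 window held 19 regions, ACPP 12, STEAP1 and STEAP2 23, TRPM8 10 and SLC45A3 13.

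All libraries were ATAC-seq of 22Rv1, a human prostate carcinoma cell line; in ATAC-seq a transposase cuts accessible DNA and the cut sites are sequenced. The 15 parental libraries fell into 5 groups of 3, treated with 0.1% DMSO, with either of 2 stereoprobes at 20 uM (WX-02-23 and WX-02-43), or with 10 nM or 100 nM PladB. PladB is pladienolide B, a splicing inhibitor that binds the SF3B1 and PHF5A complex. The other 14 libraries came from engineered cells, 2 per group over 7 groups, and every engineered group, controls included, carried overexpressed Y36C-PHF5A. One engineered line carried Dox-inducible WT-FOXA1 and the other Dox-inducible C258A-FOXA1, where Dox is doxycycline. Both lines were given Dox with 0.1% DMSO, with WX-02-23 at 20 uM or with PladB at 100 nM. The WT-FOXA1 line was also given DMSO without Dox. Every treatment lasted 3 h. No C258A-FOXA1 group without Dox and no parental group with Dox was analysed here, so Dox itself and induced FOXA1 cannot be told apart. The labels do not say whether an engineered line was a clone or a pool, nor whether replicates were separate cultures. The p-values therefore measure the spread between these libraries, which may be technical.

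FOLH1 encodes prostate-specific membrane antigen, a surface carboxypeptidase used as an imaging and therapy target in prostate cancer. ACPP (ACP3 in current nomenclature) encodes prostatic acid phosphatase, a secreted enzyme of seminal fluid. STEAP1 and STEAP2 are multi-pass membrane proteins of a metalloreductase family, TRPM8 is a cation channel that opens in the cold, and SLC45A3 encodes prostein, a membrane transporter. Several of these genes are regulated by the androgen receptor in prostate epithelium, where the pioneer factor FOXA1 binds forkhead motifs and lets other factors reach closed chromatin. Accessible regions mark such promoters and enhancers, but peaks give neither transcript levels nor the target gene of a distal region.

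The promoters show how the gene starts differ in sequence before any treatment is considered. The 250 bases before the start were taken from RefSeq (GRCh38.p14) for 5 of the 6 genes. FOLH1 had no entry. The 4 printed here belong to the gene starts with a peak in every library (ACPP, STEAP1, SLC45A3) and the start without a peak in any (TRPM8). They lie at chr3:132317157-132317406 on the plus strand for ACPP, chr7:90154219-90154468 on the plus strand for STEAP1, chr1:205680510-205680759 on the minus strand for SLC45A3 and chr2:233917123-233917372 on the plus strand for TRPM8. Capitals mark a forkhead match, searched as TGTTTAC or TATTTAC on both strands.
ACPP: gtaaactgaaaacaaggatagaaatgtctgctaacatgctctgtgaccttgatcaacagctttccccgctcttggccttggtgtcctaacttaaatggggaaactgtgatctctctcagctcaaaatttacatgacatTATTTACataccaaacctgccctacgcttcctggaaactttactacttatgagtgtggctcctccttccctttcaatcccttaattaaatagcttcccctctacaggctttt
STEAP1: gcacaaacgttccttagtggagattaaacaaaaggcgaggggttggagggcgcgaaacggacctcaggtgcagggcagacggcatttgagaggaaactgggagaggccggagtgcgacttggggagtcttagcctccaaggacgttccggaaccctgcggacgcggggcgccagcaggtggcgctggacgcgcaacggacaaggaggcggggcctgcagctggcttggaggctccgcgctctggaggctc
SLC45A3: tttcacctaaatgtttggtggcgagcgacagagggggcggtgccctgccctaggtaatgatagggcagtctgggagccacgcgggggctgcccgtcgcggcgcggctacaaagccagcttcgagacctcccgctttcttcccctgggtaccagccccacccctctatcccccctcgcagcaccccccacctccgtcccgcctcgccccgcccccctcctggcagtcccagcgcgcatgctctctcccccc
TRPM8: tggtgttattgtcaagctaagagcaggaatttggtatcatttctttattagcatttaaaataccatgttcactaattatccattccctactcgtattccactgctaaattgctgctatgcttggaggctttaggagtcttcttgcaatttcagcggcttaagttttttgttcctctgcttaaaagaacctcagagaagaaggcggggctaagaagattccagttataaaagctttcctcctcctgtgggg

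ACPP held the single capitalised match, TATTTAC, 112 to 106 bases before the start; no match was found in the windows of STEAP1, STEAP2, SLC45A3 and TRPM8. Of 35116 promoter windows of the same length, 5.27% held either form. GC content was 42% for ACPP and 40% for TRPM8, against 64.4% for STEAP1, 69.6% for STEAP2 and 69.2% for SLC45A3. The promoter of TRPM8, low in GC and without a peak, therefore resembled that of ACPP in base composition, while ACPP had a peak in 29 of 29 libraries. The promoter windows are in another build than the peaks, and no coordinates were converted between them.

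Regions are named below by gene and by the distance in kb of their nearest edge from the gene start, with minus for upstream and with distances of the shared window taken from the start of STEAP1. The value of a peak is the authors' fold enrichment at its summit over the local background of that library, a ratio that ranks peaks within a list. The sources used here do not state read numbers per library. Lists had between 82538 and 98193 peaks in parental cells and between 62832 and 92658 in engineered cells, and a shorter list can lack a peak that a longer one shows. Exon and intron annotation of hg19 and the hg19 start of STEAP2 were not used here. In RefSeq gene order the neighbours are TRIM64C and OR4C13 for FOLH1, CPNE4 and DNAJC13 for ACPP, TEX47 and CFAP69 for the STEAP1 and STEAP2 pair, MSL3B and SPP2 for TRPM8, and ELK4 and NUCKS1 for SLC45A3, and a distal region can lie nearer to one of these.

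The start of FOLH1 (chr11:49229477-49230320), of ACPP (chr3:132035789-132036820), of STEAP1 (chr7:89783216-89784246) and of SLC45A3 (chr1:205648590-205649960) had a peak in 29 of 29 libraries. TRPM8 had none at its start in any library, and its nearest region, TRPM8 -4.2 kb, had a peak in 8 of 29. These starts were the only check of the prostate label, as other marker loci were not analysed here. In the DMSO libraries of parental cells the fold at the start was 10.9, 11.9 and 11.98 for FOLH1, 14, 13.1 and 14.1 for ACPP, 9.73, 10.1 and 9.49 for STEAP1, and 6.70, 8.77 and 8.53 for SLC45A3. ACPP was therefore the highest of these starts and SLC45A3 the lowest in each of the 3 libraries. FOLH1 lay above STEAP1 in each of them.

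The highest mean fold of each window over the 3 parental DMSO libraries was often away from the start used for naming. In the FOLH1 window it was FOLH1 +30.3 kb (chr11:49199337-49199942), at 13.2, 13.3 and 11.98. In the shared window it was STEAP1/STEAP2 +57.1 kb (chr7:89840755-89841757), at 15, 14 and 12.5. The STEAP1 and STEAP2 promoter windows end at 90154468 and 90211739 in GRCh38.p14, a spacing close to this distance. That region therefore probably holds the start of STEAP2, which was not placed in hg19 here. TRPM8 had its highest mean fold at TRPM8 -48.8 kb (chr2:234776390-234777203), at 12.7, 15.4 and 13.9. SLC45A3 had it at SLC45A3 -22.5 kb (chr1:205672171-205673081), at 10.7, 9.71 and 9.87, and ACPP at its start. These 5 regions had a peak in 29 of 29 libraries. They were chosen for a high fold, and how often regions of like fold had a peak in every library was not counted. Presence of a peak does not show that the fold was unchanged.

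Of the 77 regions, 16 (20.8%) had a peak in all 29 libraries, against 21.5% of all regions. These were 4 at FOLH1, 1 at ACPP, 6 at STEAP1 and STEAP2, 1 at TRPM8 and 4 at SLC45A3. The windows differed in density: 12.5 regions per 100 kb around STEAP1 and STEAP2, 11.7 around FOLH1, 10.6 around SLC45A3, 8.48 around ACPP and 4.95 around TRPM8. TRPM8 thus had the sparsest window and only its most distant upstream element in every library. The map of the 5 windows shows these constant elements as vertical rows of full-size dots.

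**Figure D1:**
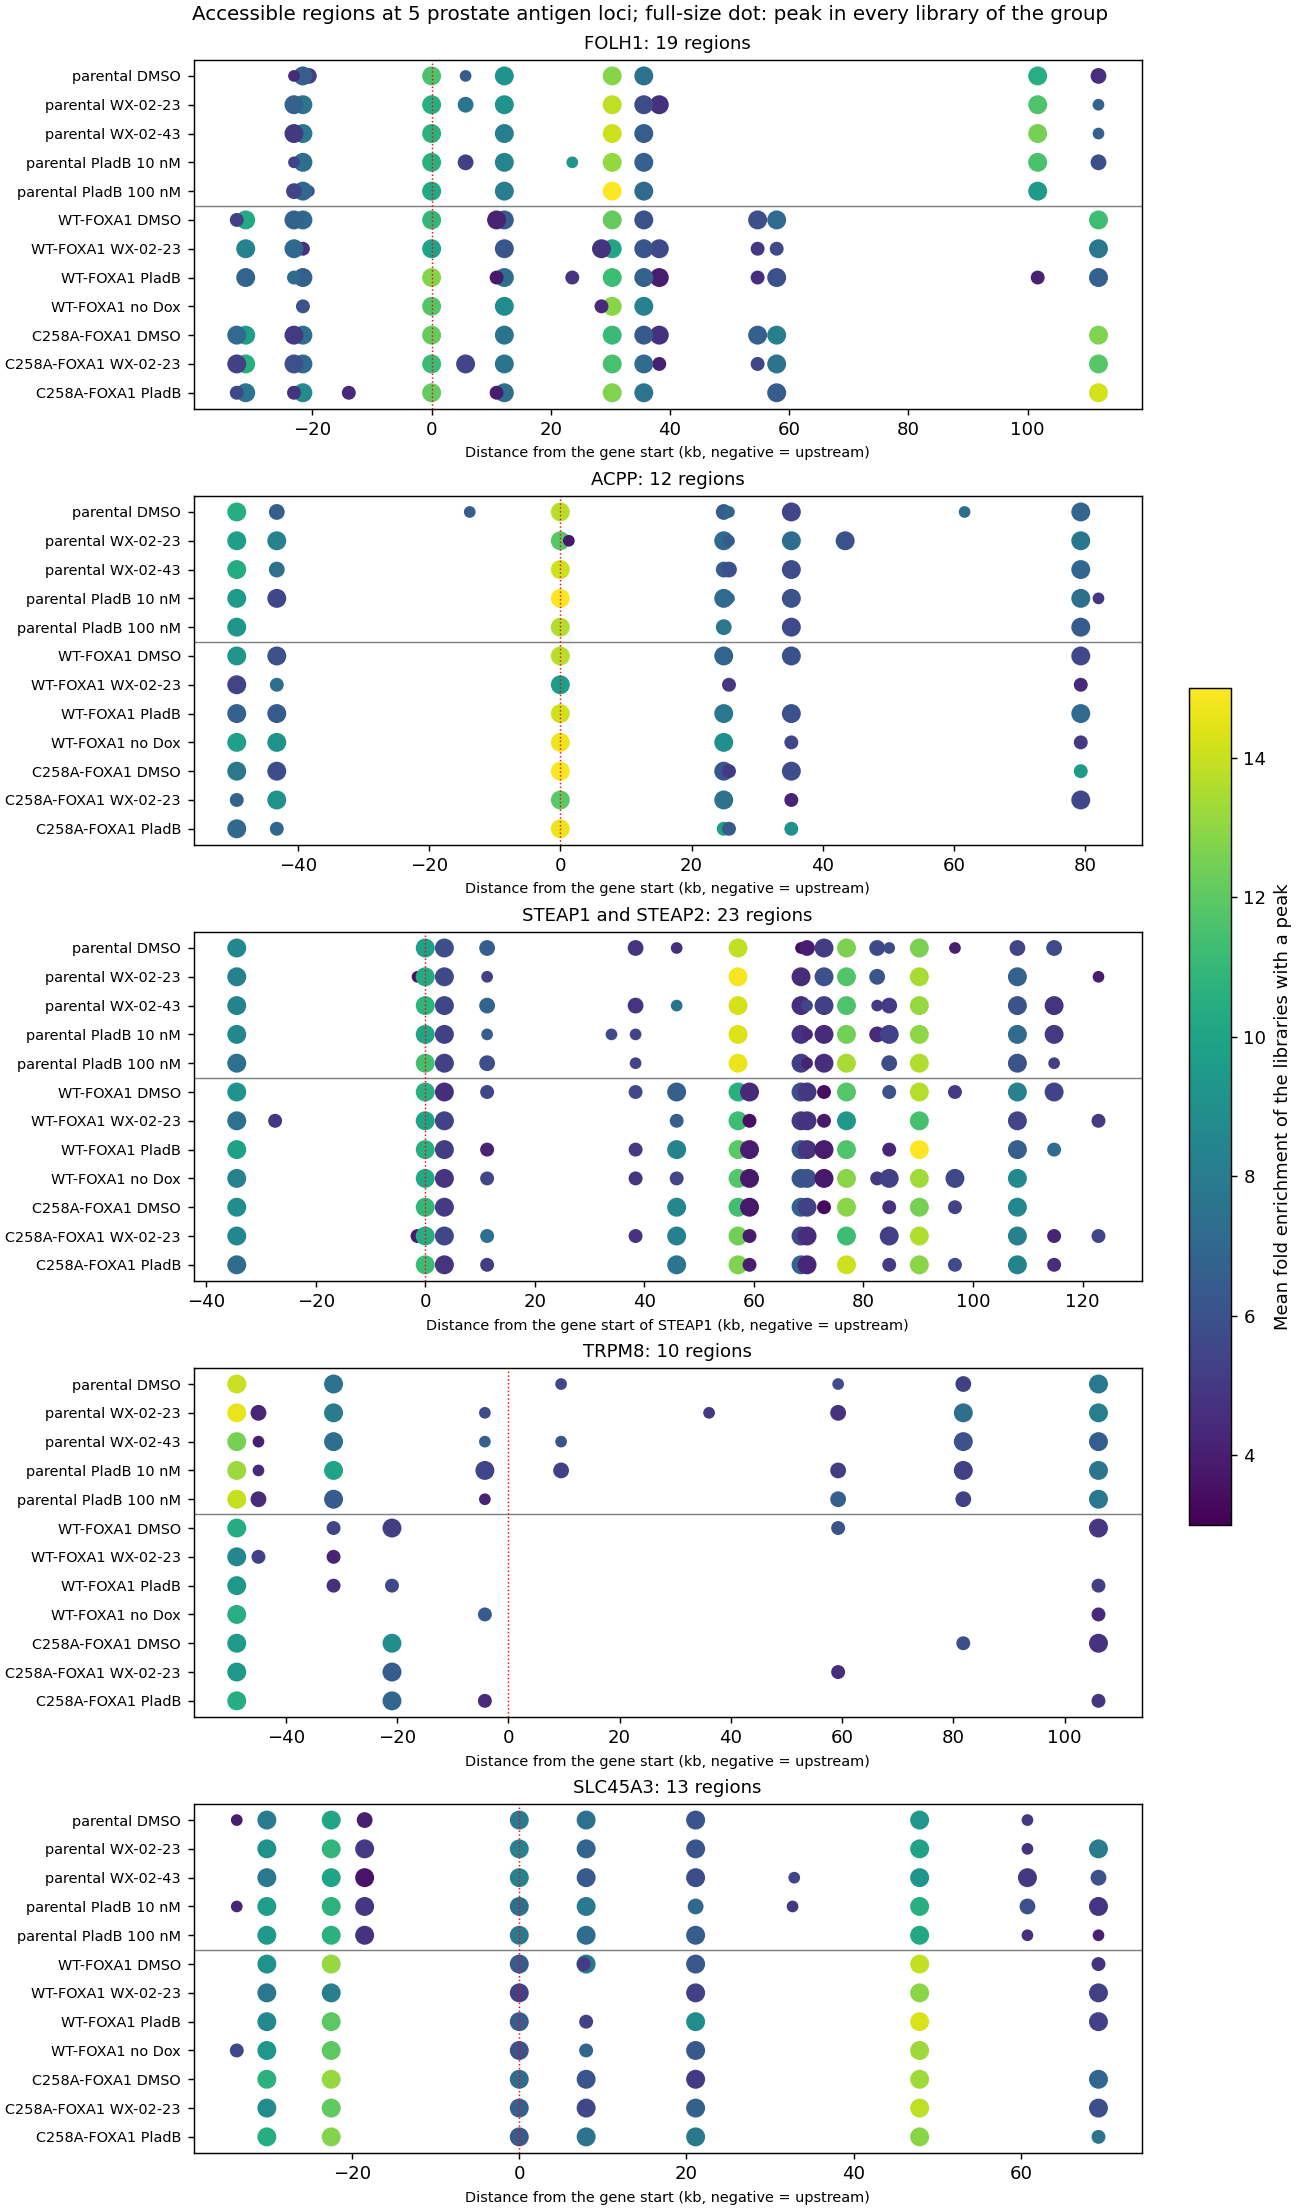
Accessible regions in the 5 windows, 1 row per group; the x axis is the distance from the gene start in kb, dot size the share of the group's libraries with a peak, and colour the mean fold enrichment of those libraries. The starts of FOLH1, ACPP, STEAP1 and SLC45A3 carry full-size dots in all 12 groups, TRPM8 has no dot at its start, and several FOLH1 regions appear only below the line that separates parental from engineered groups.

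Under WX-02-23 in parental cells, a region downstream of ACPP and a region inside FOLH1 had a peak in all 3 treated libraries and in none of the other 12 parental libraries. ACPP +43.4 kb (chr3:132079624-132079873) had folds of 6.60, 5.86 and 5.72 under WX-02-23 and no peak in the other 26 libraries of the series, engineered WX-02-23 libraries included. FOLH1 +38.2 kb (chr11:49191535-49192037) had folds of 4.45, 4.37 and 5.22. These were 2 of 65 member regions tested, where 0.644% of all regions were gained and 0.123% were lost in the same comparison; no member was lost. Both are low peaks beside their gene starts. With lists of equal length, each shortened by p-value to the shortest compared, and with 50% of a region required to be covered, only ACPP +43.4 kb remained.

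Against DMSO alone, 3 of 60 regions were gained, with a background of 1.82%, and 0 of 60 were lost, with a background of 1.18%. The additional region was SLC45A3 +69.3 kb (chr1:205579674-205580303), with folds of 7.96, 8.18 and 7.65 under WX-02-23 and no peak under DMSO. Other treatments held it too. The PladB 10 nM libraries held it at 5.20, 4.88 and 4.47, and 2 of 3 WX-02-43 libraries held it at 4.58 and 7.42. Without DMSO replicate 2, 5 regions were gained, and 1 or 2 were lost when a DMSO library was left out.

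The comparison of WX-02-23 with WX-02-43 was made at 20 uM and 3 h for both. WX-02-23 had a peak that WX-02-43 lacked at FOLH1 +38.2 kb and ACPP +43.4 kb, 2 of 56 regions with a background of 1.60%. STEAP1/STEAP2 +114.8 kb (chr7:89898472-89899047) was the 1 lost region, with a background of 1.07%. It had folds of 5.09, 4.72 and 4.80 under WX-02-43, no peak under WX-02-23, and a peak in 2 of 3 DMSO libraries. Without WX-02-23 replicate 3, 4 regions were gained, and lost regions numbered 2 without WX-02-23 replicate 1 and 3 without WX-02-43 replicate 3. Under WX-02-43 against DMSO, 0 of 55 members were gained (background 0.34%) and 0 were lost (0.369%). Without DMSO replicate 2, 3 were gained, and without DMSO replicate 3, 1 was lost.

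PladB at 10 nM gained 2 of 58 regions, with a background of 0.408%, and lost 0, with a background of 0.556%. These were SLC45A3 +69.3 kb and TRPM8 -4.2 kb (chr2:234821421-234821809), the region nearest to the start of TRPM8, with folds of 6.24, 4.88 and 5.21. TRPM8 -4.2 kb was also present in 1 of 3 WX-02-23, 1 of 3 WX-02-43 and 1 of 3 PladB 100 nM libraries. PladB at 100 nM gained 0 of 54 (0.187%) and lost 0 (1.68%). The treatments with DMSO as control share those 3 libraries.

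None of the 6 parental comparisons run on the number of member regions with a peak passed its exact permutation test. DMSO libraries held 36, 41 and 38 regions, WX-02-23 libraries 42, 42 and 41, and WX-02-43 libraries 42, 44 and 35. PladB libraries held 43, 47 and 40 at 10 nM and 34, 36 and 38 at 100 nM. The PladB 100 nM libraries lay below every PladB 10 nM and WX-02-23 library, and those pairs were not tested. Their whole lists were also shorter, at most 87426 peaks against at least 88818 under PladB 10 nM and 93866 under WX-02-23. With lists of equal length, PladB 100 nM libraries held more member regions than DMSO libraries on average. WX-02-23 exceeded the other 12 libraries by 2.17 regions (41.7 ± 0.577, SD, n = 3, against 39.5 ± 4.01, n = 12; exact two-sided permutation test, p = 0.409). Against DMSO the differences were 3.33 for WX-02-23, 2 for WX-02-43, 5 for PladB 10 nM and -2.33 for PladB 100 nM. Their exact permutation p-values were 0.2, 0.7, 0.2 and 0.5, or 0.5, 0.875, 0.5 and 0.833 after Benjamini-Hochberg adjustment over 5 comparisons. WX-02-23 and WX-02-43 differed by 1.33 (exact permutation p = 1), and by -1.33 without WX-02-43 replicate 3, the shortest list of that group. With 3 against 3 libraries no exact p below 0.1 can arise. The plot of regions per library shows these ranges.

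**Figure D2:**
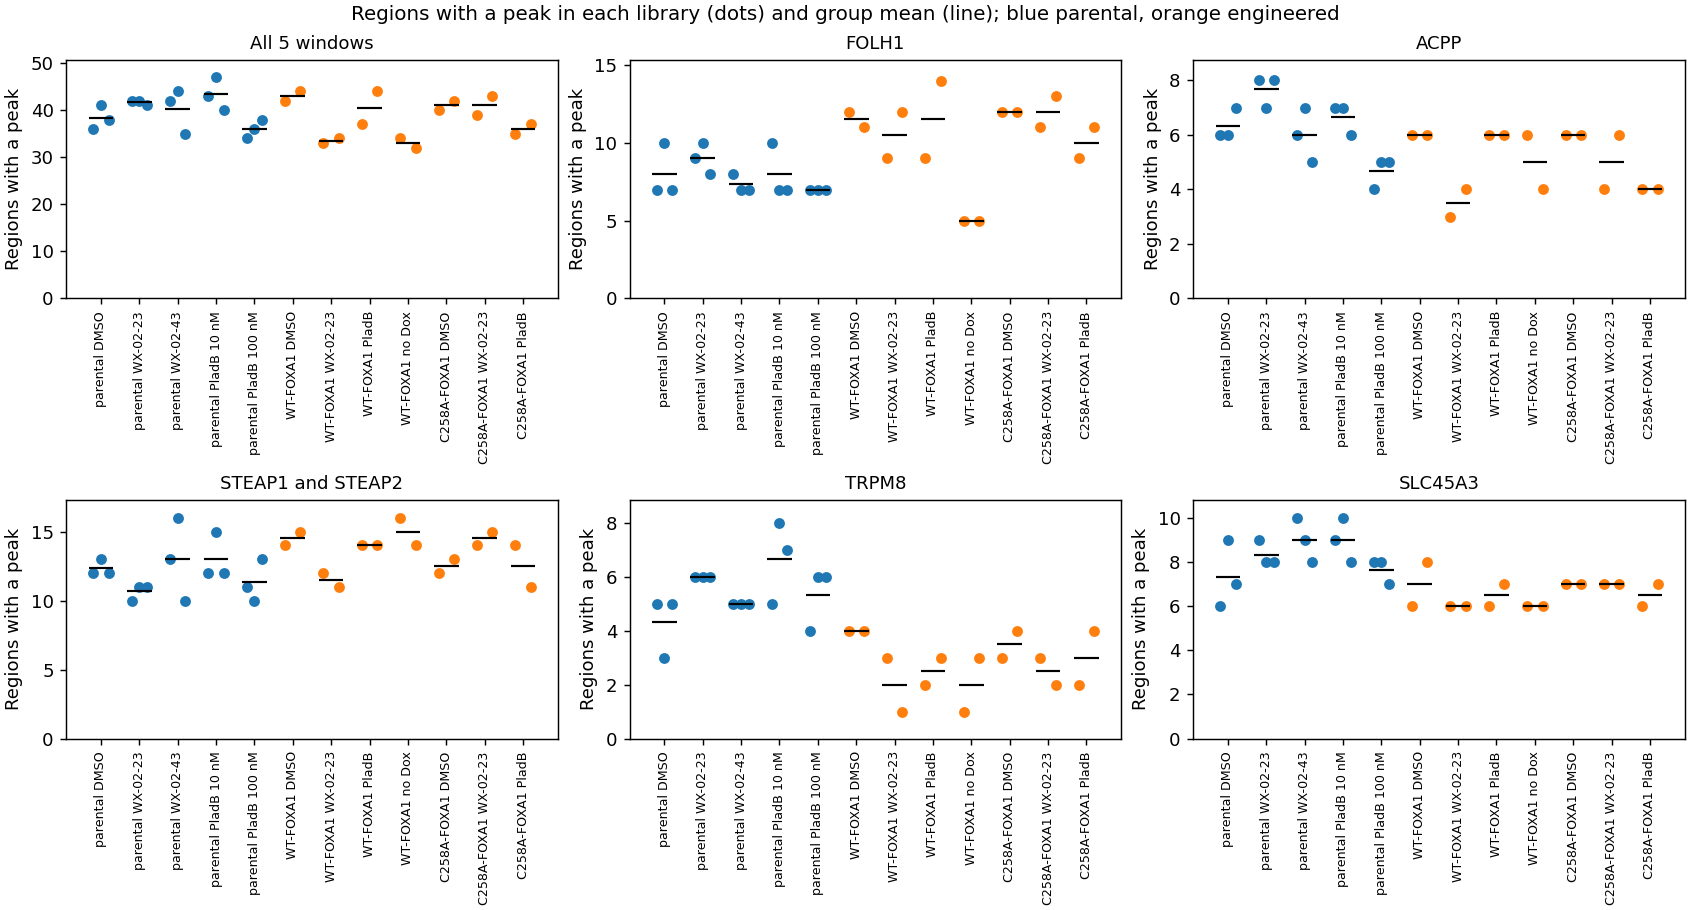
Number of member regions with a peak in each library (dots) and the group mean (line), for all 5 windows and for each window; blue marks parental and orange engineered groups. FOLH1 counts are 5 and 5 without Dox and 9 to 14 in the engineered libraries with Dox, while parental libraries hold 7 to 10.

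The gene starts, present throughout, were compared by their rank. The percentile of the authors' fold was taken among the 54404 regions that all 15 parental libraries held and tested with limma, adjusted over all those regions, with a threshold of 0.05. The start of ACPP was the 1 start called. Under WX-02-23 its start ranked at percentiles 67.0, 78.0 and 74.7, under DMSO at 89.3, 82.4 and 89.1, under WX-02-43 at 96.3, 84.0 and 87.5, under PladB 10 nM at 93.0, 89.6 and 93.8, and under PladB 100 nM at 91.7, 86.5 and 76.8. All 3 WX-02-23 libraries lay below every library of the other groups except PladB 100 nM replicate 3. How many of all regions separated in this way was not counted.

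The start of ACPP fell by 15.1 percentile points (SE 3.32) under WX-02-23 against the mean of the other 4 groups (limma, adjusted p = 0.0217). It was the 1 member of 25 called in that comparison, where 1.77% of all regions were called lower and 1.46% higher. The drop was 13.7 points (SE 4.20) against DMSO and 16.1 points (SE 4.20) against WX-02-43, neither of which passed (limma, adjusted p = 0.126 and 0.0786). WX-02-23 against WX-02-43 called 0 of 25 members by limma, with 0.551% of all regions higher and 1.04% lower. At an unadjusted limma p under 0.05 there were 3 members, beside 3298 regions higher and 3628 lower of all 54404. The interval of the difference between WX-02-23 and WX-02-43 ran from -25.1 to -7.10 points at 95% before adjustment. The call against the 4 groups was lost without WX-02-23 replicate 1 (adjusted p = 0.145), without WX-02-23 replicate 3 (0.0725) and on normal scores in limma (0.0565).

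The same start was lower under WX-02-23 in both engineered lines, without passing the test. In the WT-FOXA1 line with Dox it ranked at 78.7 and 80.8 under DMSO and at 64.6 and 58.5 under WX-02-23, a difference of -18.3 points (SE 6.68; limma, adjusted p = 0.176). In the C258A-FOXA1 line it ranked at 92.4 and 80.2 under DMSO and at 75.4 and 62.7 under WX-02-23, a difference of -17.3 points (SE 6.68; limma, adjusted p = 0.577). With 2 libraries per group, the groups did not overlap in either line, and how many of all regions did the same was not counted. These percentiles were taken among the 37263 regions that all 14 engineered libraries held. The difference between the 2 changes was -0.992 points with a 95% interval of -21.7 to 19.7 (limma, adjusted p = 0.989), which is wide enough to hold an effect of either size in 1 line alone.

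No other gene start passed the test in any comparison. The FOLH1 start was 10.3 points lower than in DMSO under WX-02-23, written as a difference of -10.3 (limma, adjusted p = 0.529), the STEAP1 start differed by 5.71 (0.866) and the SLC45A3 start by 3.81 (0.938), each by limma with adjusted p in parentheses. Between WX-02-23 and WX-02-43 the 95% intervals were -17.8 to 9.17 points for FOLH1, -25.6 to 12.5 for STEAP1 and -25.9 to 19.2 for SLC45A3, so sizeable differences remain possible. The starts did not vary together over the 15 parental libraries. Spearman's rho was highest between ACPP and FOLH1 at 0.146 and lowest between ACPP and SLC45A3 at -0.554, as a description of libraries that share their groups.

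**Figure D3:**
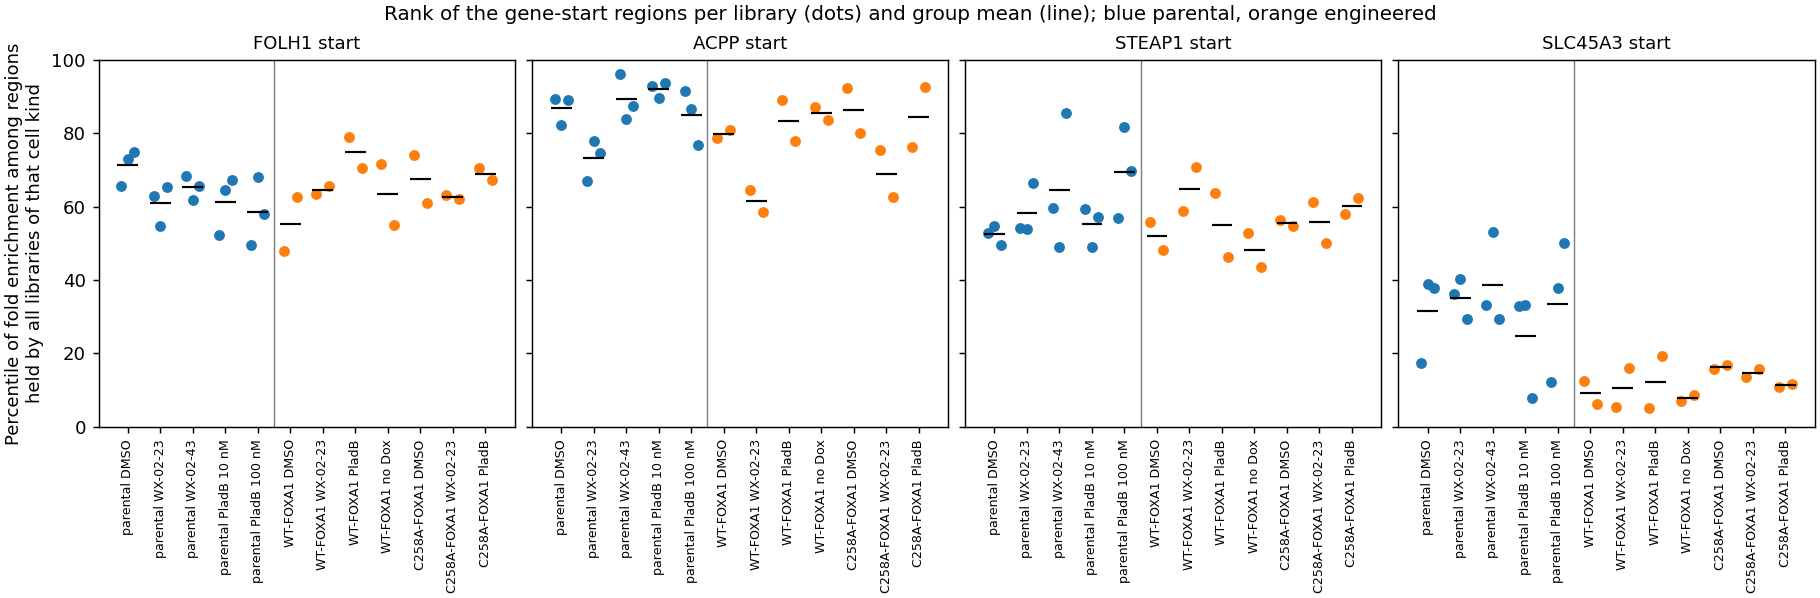
Percentile of the fold enrichment of 4 gene-start regions in each library (dots) with the group mean (line), among the regions held by all parental (blue) or all engineered (orange) libraries, which are 2 separate scales. The ACPP start is lower under WX-02-23 than under DMSO in parental cells and in both engineered lines.

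Elsewhere, 25 parental members could be ranked, and none passed in the comparisons with DMSO. For WX-02-23 against DMSO, 0.689% of all regions were called higher and 1.13% lower. At an unadjusted limma p under 0.05 there were 2 members in each direction, beside 3644 regions higher and 3893 lower of all 54404. The intragenic FOLH1 +35.6 kb (chr11:49193943-49194645) ranked at 10.7, 5.9 and 11.4 under WX-02-23 and at 28.6, 26.6 and 20.8 under DMSO. The difference was -16.1 points (SE 4.17, limma adjusted p = 0.0691). In the WT-FOXA1 line with Dox this region went the other way, at a mean percentile of 21.1 under WX-02-23 and 6.84 under DMSO (n = 2 each). That change did not pass either. ACPP +35.2 kb (chr3:132071405-132071744), inside the ACPP interval, ranked at 19.5, 21.6 and 28.2 against 10.0, 6.9 and 5.5, a difference of 15.6 points (SE 4.46; limma, adjusted p = 0.0993). At the ACPP locus the start and this internal region had opposite signs in parental cells, and neither passed against DMSO. In each engineered line with Dox, ACPP +35.2 kb had a peak in 2 of 2 DMSO libraries. Under WX-02-23 it had a peak in 0 of 2 in the WT-FOXA1 line, where lists were shorter, and in 1 of 2 in the C258A-FOXA1 line. WX-02-43 and both PladB doses called 0 of 25 members against DMSO, with backgrounds of 0.00184% or less for WX-02-43 and PladB 10 nM and 0.0827% higher and 0.114% lower for PladB 100 nM. At an unadjusted p under 0.05, limma gave 0 members for WX-02-43, 2 for PladB 10 nM and 1 for PladB 100 nM. Of all 54404 regions it gave 1639 higher and 1686 lower for WX-02-43, and 1935 and 1952 for PladB 10 nM. For PladB 100 nM it gave 3649 and 3215.

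With the lists as deposited, most of the regions that differed between DMSO libraries with and without Dox in the WT-FOXA1 line lay at FOLH1, whereas with 50% of a region covered 2 of 5 gained regions did. With Dox, 12 and 11 FOLH1 regions had a peak, and without Dox 5 and 5. Gained regions numbered 8 of 52 over the 5 windows, with a background of 13.2%, and 0 were lost, with a background of 1.10%. Of the 8, 6 lay in the FOLH1 window, where 13 regions were tested. The count over the 5 windows was near the background. The lists without Dox were also shorter, at 69814 and 67195 peaks against 88140 and 85009.

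Upstream of FOLH1, FOLH1 -31.2 kb (chr11:49261376-49262103) had folds of 9.81 and 10.7 with Dox, no peak without Dox, and no peak in any parental library. It was present in all 12 engineered libraries with Dox, from 6.49 to 10.8. Inside the gene, FOLH1 +57.9 kb (chr11:49171837-49172304) had folds of 6.24 and 8.03 with Dox and FOLH1 +54.7 kb (chr11:49175125-49175475) 5.91 and 5.79. Neither had a peak without Dox or in parental cells. Downstream, FOLH1 +111.9 kb (chr11:49117366-49118342) had folds of 10.7 and 11.9 with Dox and none without, and a peak in 6 of 15 parental libraries, from 4.0 to 6.84.

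FOLH1 -23.1 kb, also gained, had folds of 6.96 and 6.53 with Dox and a peak in 10 of 15 parental libraries. These 5 FOLH1 regions stayed gained with lists of equal length, where the background was 8.11%, and with a q-value of 1e-05 or below. FOLH1 +10.9 kb, at 3.72 and 4.54, STEAP1/STEAP2 +114.8 kb and TRPM8 -20.9 kb did not. With 50% of a region covered, 5 members were gained: FOLH1 +57.9 kb, FOLH1 +10.9 kb, ACPP +35.2 kb, STEAP1/STEAP2 +45.9 kb and STEAP1/STEAP2 +114.8 kb. Of the 5 FOLH1 regions kept by the other settings, only FOLH1 +57.9 kb stayed gained there. Without replicate 1 of the group lacking Dox, 13 were gained. Gained and lost regions were not tested with 2 libraries against 2.

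In the C258A-FOXA1 line with Dox, all 5 of these FOLH1 regions had a peak in both DMSO libraries. There, FOLH1 -31.2 kb had folds of 10.4 and 9.06, FOLH1 +57.9 kb 8.24 and 8.03, FOLH1 +54.7 kb 7.06 and 6.19, and FOLH1 +111.9 kb 12.2 and 13.2. No library of that line without Dox was analysed here. FOLH1 has a near-identical copy elsewhere on its chromosome, FOLH1B, and the handling of reads that fit both was not given, so peaks inside FOLH1 are uncertain to that extent. The start of FOLH1 had a peak either way, with folds of 10.3 and 11.6 with Dox and 12.6 and 10.9 without. The heat map of the FOLH1 window shows both kinds of region side by side.

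**Figure D4:**
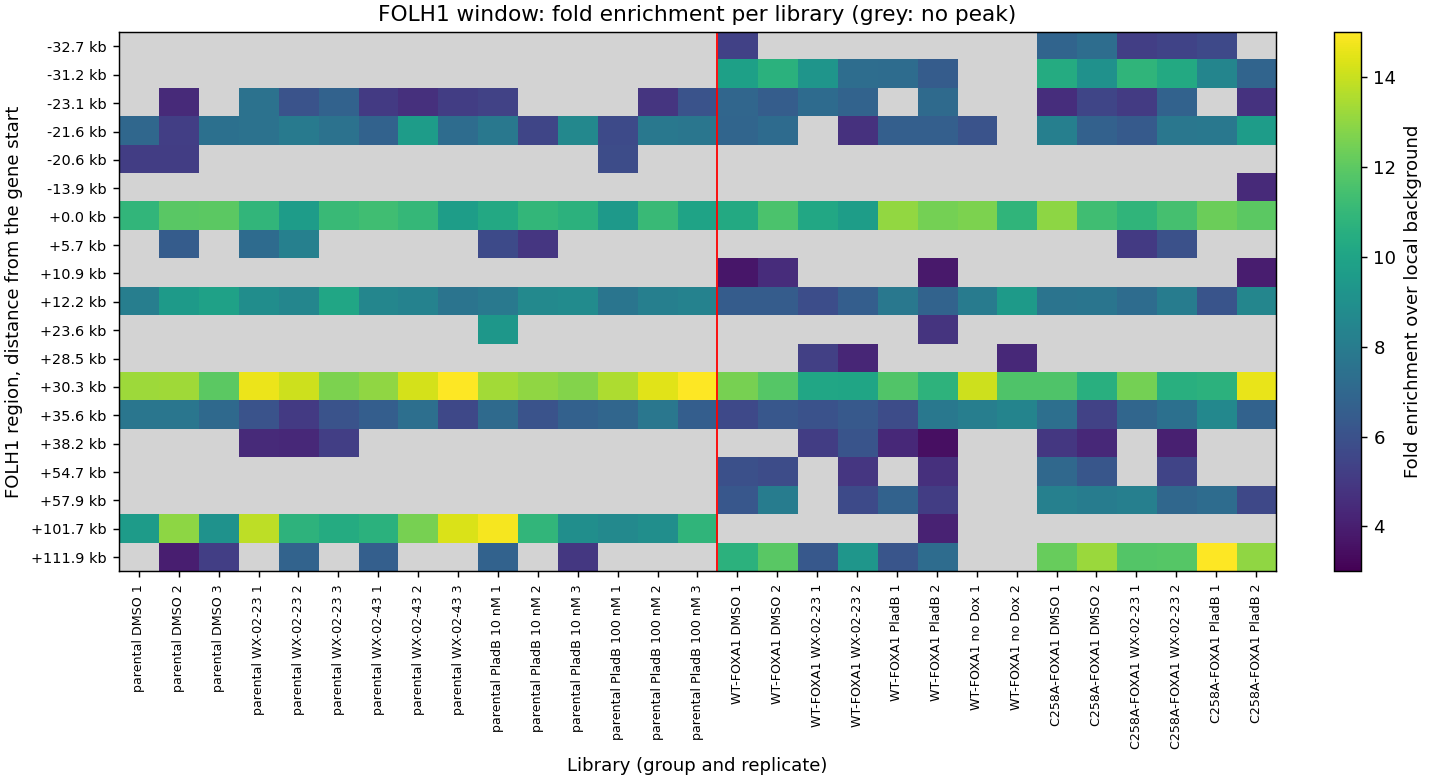
Fold enrichment over the local background (colour) of the 19 FOLH1 regions (rows, by distance from the gene start) in the 29 libraries (columns, by group and replicate); grey means no peak, and the red line separates parental from engineered libraries. The rows at -31.2, +54.7 and +57.9 kb are coloured only in engineered libraries with Dox, and the row at +101.7 kb mainly in parental ones.

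WX-02-23 in the WT-FOXA1 line was set beside DMSO with Dox. Gained regions were 2 of 54, with a background of 1.31%: FOLH1 +38.2 kb at 5.16 and 6.10, and FOLH1 +28.5 kb at 5.25 and 4.28. FOLH1 +38.2 kb was thus gained under WX-02-23 in parental cells and in this line. Lost regions were 7 of 54, a share of 12.96% beside a background of 11.7%. They were FOLH1 +10.9 kb, ACPP +24.9 kb, ACPP +35.2 kb, STEAP1/STEAP2 +114.8 kb, TRPM8 -20.9 kb, TRPM8 +106.1 kb and SLC45A3 +8.0 kb. The treated lists were short, at 67815 and 62832 peaks beside 88140 and 85009. Lost regions numbered 12 without WX-02-23 replicate 2 and 11 without DMSO replicate 2, and gained regions 4 without either WX-02-23 library.

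Regions with a peak numbered 33 and 34 under WX-02-23 and 42 and 44 under DMSO, a difference of -9.5, which became 2 with lists of equal length. At equal length 2 regions were still lost, ACPP +24.9 kb (chr3:132061111-132061403), with DMSO folds of 6.25 and 7.53, and SLC45A3 +8.0 kb (chr1:205641280-205641595), with DMSO folds of 8.05 and 7.65. Neither was lost in the C258A-FOXA1 line, where WX-02-23 folds were 6.51 and 8.61 for ACPP +24.9 kb and 5.30 and 5.83 for SLC45A3 +8.0 kb. In parental cells both were found in each of the 3 WX-02-23 libraries. The difference between the lines was not tested for these regions. By rank, 0 of 20 members passed in the WT-FOXA1 line (backgrounds 0.569% higher and 0.617% lower). At an unadjusted limma p under 0.05, 4171 of all 37263 regions were higher and 2998 lower, with 2 members in each direction. The smallest adjusted p was that of STEAP1/STEAP2 +3.5 kb, 8.53 points higher (SE 1.91; limma, adjusted p = 0.0563), with percentiles of 10.2 and 10.5 under WX-02-23 and 1.12 and 2.46 under DMSO.

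In the C258A-FOXA1 line WX-02-23 gained 1 of 52 members, FOLH1 +5.7 kb at 5.05 and 5.96, with a background of 2.37%. It lost 1, TRPM8 +106.1 kb (chr2:234932189-234932669), with DMSO folds of 4.46 and 5.06 and a background of 2.55%. Without WX-02-23 replicate 2 these counts were 5 and 6, and without replicate 1 the gained count was 4. TRPM8 +106.1 kb was also absent after WX-02-23 in the WT-FOXA1 line, where DMSO folds were 5.03 and 4.81. Neither loss was kept with equal list length, a q-value of 1e-05 or below, or 50% of a region covered. The region was also missing from 1 of 2 libraries in each engineered PladB group and in the group without Dox. It was present in 15 of 15 parental libraries, with folds of 9.05, 5.86 and 9.55 under WX-02-23. Regions with a peak numbered 39 and 43 under WX-02-23 and 40 and 42 under DMSO, a difference of 0. By limma, 0 of 20 members passed in this line and 0 in the difference between the lines, with 1 and 0 at an unadjusted p under 0.05. Over all regions 0% were called higher and 0.00268% lower in this line, and 0% in either direction for the difference between the lines. At an unadjusted limma p under 0.05, 1431 of all 37263 regions were higher and 1430 lower in this line. For the difference between the lines these were 1486 and 1460.

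PladB at 100 nM in the WT-FOXA1 line gained 1 of 51 members, FOLH1 +38.2 kb at 4.40 and 3.49 (background 0.915%), and lost 0 (background 3.05%). That gain was seen only with the lists as deposited. In the C258A-FOXA1 line PladB gained 0 of 49 (0.806%) and lost 2 (4.67%), FOLH1 +54.7 kb and FOLH1 +38.2 kb. The loss of FOLH1 +38.2 kb was not kept with 50% of a region covered. Lost regions were 8 without PladB replicate 2 of the C258A-FOXA1 line and 6 without PladB replicate 2 of the WT-FOXA1 line. The libraries held 37 and 44 regions under PladB in the WT-FOXA1 line and 35 and 37 in the C258A-FOXA1 line. By rank, limma called 0 of 20 members in either line (background 0% in both directions), with 2 and 1 members at an unadjusted p under 0.05. Of all 37263 regions, 900 were higher and 886 lower at that p in the WT-FOXA1 line, and 1183 and 1271 in the C258A-FOXA1 line. For Dox against no Dox limma also called 0 of 20, with 0.15% of all regions higher and 0.0268% lower, and 3 members at an unadjusted p under 0.05. At that p, 1508 of all 37263 regions were higher and 1448 lower with Dox.

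Some regions away from the named starts had a peak mainly in parental or mainly in engineered cells. The starts of FOLH1, STEAP1 and SLC45A3 had a peak in every library of both, and that of TRPM8 in none. The regions in this paragraph were chosen after their values were seen. FOLH1 +101.7 kb (chr11:49127716-49128491) had a peak in 15 of 15 parental libraries, from 8.65 to 14.9, and in 1 of 14 engineered libraries. SLC45A3 -18.5 kb (chr1:205668092-205668457) had a peak in 14 of 15 parental and 0 of 14 engineered libraries, and SLC45A3 +60.8 kb in 8 and 0. STEAP1/STEAP2 +59.2 kb (chr7:89842895-89843292) had a peak in 0 of 15 parental and 11 of 14 engineered libraries, those without Dox included. It lies close to STEAP1/STEAP2 +57.1 kb, and so probably near the start of STEAP2.

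TRPM8 -20.9 kb (chr2:234804662-234805093) was present in 0 of 15 and 9 of 14, none of them without Dox, and TRPM8 +81.8 kb in 13 of 15 and 1 of 14. Over the 77 regions, 12 (15.6%) had a peak in no parental library and 13 (16.9%) in no engineered library, beside 18.5% and 25.2% of all regions. FOLH1 alone had 7 of 19 regions without a parental peak, and ACPP 5 of 12 without an engineered peak. Of those 5 ACPP regions, 4 had a peak in 1 library only. The remaining ACPP +43.4 kb had a peak in 3 of 15 parental libraries, all of 1 treatment group. The ACPP count therefore does not describe regions held across the parental groups. Of the 7 FOLH1 regions, 1 had a peak in 1 library only. Genotype, Dox, handling and list length cannot be told apart here, and no test was made.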

How the data were processed

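ATAC-seq peaks of 29 libraries were used as deposited, 1 list per library. The submitters' processing notes name Bowtie2, MACS2 and hg19; their versions and options, and the read depth, are not stated there. For each peak the authors deposited a score, a fold enrichment (a ratio), the −log10 of p and of q, and the summit offset from the peak start. The lowest deposited −log10 q was 2 and the narrowest peak spanned 150 bp. Presence of a region in a library required a peak overlapping it by at least 1 bp. Regions gained or lost had a peak in every library of one group and in none of the other. Held counts were compared by exact permutation tests over libraries. Percentiles of fold were fitted with limma 3.58.1 (R 4.3.3, trend, Benjamini-Hochberg over all regions). This fit was tried on simulated data with planted shifts. For parental WX-02-23 against DMSO (54404 regions) it recovered 51.5% of shifts of 15 percentile points, 92.5% of 30 and 98.5% of 45. In the WT-FOXA1 line (37263 regions) it recovered 30.5%, 84.0% and 96.0%. Shifts were planted only in regions near either end of the percentile scale, towards its middle. Recovery in the middle of the scale, where the starts of FOLH1, STEAP1 and SLC45A3 ranked in parental cells, was not measured. Named regions were the gene starts, the highest fold per locus in parental DMSO, the gained and lost regions of WX-02-23 in parental cells, those shared with an engineered line, and up to 6 rank calls per comparison. The members and lists were chosen with earlier results of these data known. Other regions with values are those of each comparison's gained and lost lists and the smallest rank p-values, chosen after their values were seen. Other genes and marker loci were not analysed here, as no hg19 annotation was used. Alternatives were lists of equal length, a q-value of 1e-05 or below, 50% of a region covered, other ranks, a block for the replicate number, and each library left out in turn. Computations used Python 3.11.15, pandas 2.3.3, scipy 1.17.1, matplotlib 3.10.9 and bedtools 2.31.1.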

Additional observations from a re-analysis of the deposited data

Results flagged for a closer look

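FOLH1 +38.2 kb moved in opposite directions under PladB at 100 nM in the 2 engineered lines with Dox. In the WT-FOXA1 line it had a peak in 0 of 2 DMSO libraries and in 2 of 2 PladB libraries, a change of 2 libraries. In the C258A-FOXA1 line it had a peak in 2 of 2 DMSO libraries, at folds of 4.95 and 4.40, and in 0 of 2 PladB libraries, a change of -2. The changes differ by 4 libraries, and this difference was not tested. The gain in the WT-FOXA1 line was not kept with equal list length, a q-value of 1e-05 or below, or 50% of a region covered. The loss in the C258A-FOXA1 line was kept with equal list length and at that q-value, but not with 50% covered. The peak is low wherever it was called, from 3.49 to 6.10 over the 10 libraries that held it.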

How the results depend on the processing

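Over 54 results and 694 alternative values, 597 kept their direction and side of the threshold or stayed within the range set for counts. With lists of equal length, the difference in regions held reversed for parental PladB 100 nM (3.33) and for WX-02-23 in the WT-FOXA1 line (2), and moved for PladB in the C258A-FOXA1 line (-2.5) and for Dox (1.5). At a q-value of 1e-05 or below PladB in the C258A-FOXA1 line gave -7, and with 50% covered Dox gave 5.5. Gained members became, with equal lengths, 5 for WX-02-23 against DMSO, 1 against the other 12 libraries, 1 against WX-02-43, 1 for PladB 100 nM, 1 for WX-02-43, 2 for WX-02-23 in the C258A-FOXA1 line and 5 for Dox. Lost members became 0 for WX-02-23 against WX-02-43, and in the WT-FOXA1 line 2 for WX-02-23 and 1 for PladB, 3 for WX-02-23 in the C258A-FOXA1 line and 1 for Dox. At the stricter q-value, gained members were 5 for WX-02-23, 1 each for both PladB doses and for the other stereoprobe, 0 for PladB in the WT-FOXA1 line and 5 for Dox; lost members were 0 for WX-02-23 against WX-02-43, 1 for PladB in the WT-FOXA1 line and 1 for Dox. With 50% covered, gained members were 1 for WX-02-23 against the other 12 and against WX-02-43, 1 for PladB 10 nM, 1 for WX-02-23 and 0 for PladB in the WT-FOXA1 line, and 5 for Dox; lost members were 0 against WX-02-43, 2 for PladB in the WT-FOXA1 line, 2 for WX-02-23 and 5 for PladB in the C258A-FOXA1 line, and 1 for Dox. The cause was not tested.

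Leaving out 1 library at a time gave regions-held differences of 1.67 to 2.85 for WX-02-23 against the other 12, 2.17 to 4.67 against DMSO alone, 0.167 to 4.67 for WX-02-43, 3.17 to 6.67 for PladB 10 nM, -3.5 to -1 for PladB 100 nM and -1.33 to 3.17 for WX-02-23 against WX-02-43. In engineered cells they were -10.5 to -8.5 for WX-02-23 and -6 to 1 for PladB (WT-FOXA1), -2 to 2 and -6 to -4 (C258A-FOXA1), and 9 to 11 for Dox. Gained members stayed at 2 against the other 12 libraries and ranged over 3 to 5 for WX-02-23 and 0 to 3 with WX-02-43, 2 to 3 for PladB 10 nM, 0 to 1 for PladB 100 nM and 2 to 4 against WX-02-43, and over 2 to 4 and 1 to 3 (WT-FOXA1), 1 to 5 and 0 to 3 (C258A-FOXA1) and 9 to 13 (Dox). Lost members ranged over 0 to 2, 0 to 1, 0 to 1, 0 to 2 and 1 to 3 in the same parental order, and 9 to 12, 1 to 6, 1 to 6, 3 to 8 and 0 to 4 in the engineered order. With fewer libraries the rule is easier to meet, by its construction.

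Members called by rank against the mean of the other 4 groups ranged from 0 to 3 without 1 library: 0 without WX-02-23 replicate 1 or 3, 3 without WX-02-43 replicate 3 and 2 without PladB 100 nM replicate 3. Against DMSO the range was 0 to 1 (1 without PladB 100 nM replicate 2), and against WX-02-43 0 to 1 (1 without PladB 100 nM replicate 3). Ranking by −log10 p gave 2 calls, the replicate block 2 and normal scores 0. Replicate numbers did not pair libraries: correlations of same-numbered deviations ran from -0.0747 to 0.154 (parental) and -0.0547 to 0.095 (engineered). The replicate block added ACPP +35.2 kb (limma, adjusted p = 0.0397) and changed no other call.

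List length stands in for depth, and engineered comparisons rest on 2 libraries per group.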
